A study of Mus musculus with 4 samples.

Results

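The genes described here are 4 cytokines that signal through the common gamma chain (Il2, Il7, Il15 and Il21) and the 6 receptor chains that bind them (Il2ra, Il2rb, Il2rg, Il7r, Il15ra and Il21r). They were chosen by name and matched by gene identifier in both gene expression libraries, and all 10 were found among 31950 identifiers shared by the libraries. Single-cell RNA sequencing (scRNA-Seq) was performed on cells of the small intestinal lamina propria, the connective tissue layer beneath the gut epithelium, from WT mice and from A20ZF7 mice. A20ZF7 mice are homozygous knock-ins for a mutation of the seventh zinc finger of A20, the product of Tnfaip3, a zinc finger that binds linear ubiquitin chains, and the mutation is carried in every cell of the animal. For each genotype, cells of the proximal small intestine of 2 mice aged 12 weeks were enriched for T cells and innate lymphoid cells (ILCs) by negative selection, marked with 1 hashtag antibody per mouse, and pooled into 1 library. With 1 library per genotype there was no replicate of the genotype comparison, so no test was possible and every difference below is a difference between these 2 libraries.

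Cytokines of this family bind receptors built from 1 or 2 private chains together with the common gamma chain encoded by Il2rg, and they signal through the kinases JAK1 and JAK3 to STAT transcription factors. IL-2 acts on activated and regulatory T cells, IL-7 sustains naive T cells and ILCs, IL-15 sustains CD8 T cells and natural killer cells and is usually presented to neighbouring cells on IL-15 receptor alpha, and IL-21 is made by helper T cells and acts on B and T cells. In the gut wall, IL-7 and IL-15 come mainly from stromal, epithelial and myeloid cells, while IL-2 and IL-21 come mainly from lymphocytes.

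After filtering, 14527 WT and 43162 A20ZF7 cells remained, with median depths of 1060 and 853 unique molecular identifiers (UMIs, each 1 counted RNA molecule) per cell. Cells were clustered without the 10 genes, and clusters were named from lists of marker genes, so a name such as ILC3-like says only which markers led. Lymphocytes made up 36.2% of WT and 50.9% of A20ZF7 cells, and stromal cells 53.1% and 36.2%, so the enrichment for lymphocytes was partial in both libraries. Within the lymphocytes the makeup differed strongly, with 145 Th17-like cells in WT and 4921 in A20ZF7, and the myeloid cells numbered 361 and 1738. The class named naive or central memory T-like held Tcf7, Ccr7 and Lef1 among its 10 leading genes but was led by Gcg and Il12rb2. The ILC3-like class was led by Klrb1b and Nrgn, with 1 gene of its marker list among its 10 leading genes. Marker lists for natural killer and for gamma-delta T cells named no cluster, so any such cells lie in other classes or in unnamed clusters. Barcodes called as cells in both libraries numbered 901, which was 6.20% of WT cells, and leaving them out kept the 3 calls in lymphocytes and the 4 in stromal cells and added Il2ra to the latter at a ratio of 2.01. Levels are given as CPM, the UMIs of a gene per 1000000 UMIs summed over the cells of a class, with exact 95% intervals in parentheses, which cover counting error only. A gene was tested where either library held at least 20 UMIs and both held at least 1, and it was called higher or lower where the A20ZF7 over WT ratio passed 2-fold and the genotype with the higher level held at least 20 UMIs. Of the 14527 WT cells, 6593 had no hashtag called and so belong to no known mouse. In stromal cells their levels differed from those of the cells with a called hashtag. The 2 WT mice share 1 library, so values given by mouse do not measure the spread between libraries.

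In lymphocytes, 3 of the 10 genes passed this threshold, all of them cytokines. Il21 was higher in A20ZF7, and Il2 and Il15 were lower. The percentage of all 12834 tested genes called in either direction was 9.78%, with 6.3% higher and 3.48% lower. The median ratio was 0.956 over the 10 genes and 1.005 over all tested genes. The 6 receptor chains stayed within 2-fold, from a ratio of 0.653 (0.631 to 0.677) for Il7r to 1.58 (1.43 to 1.75) for Il21r.

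**Figure D1:**
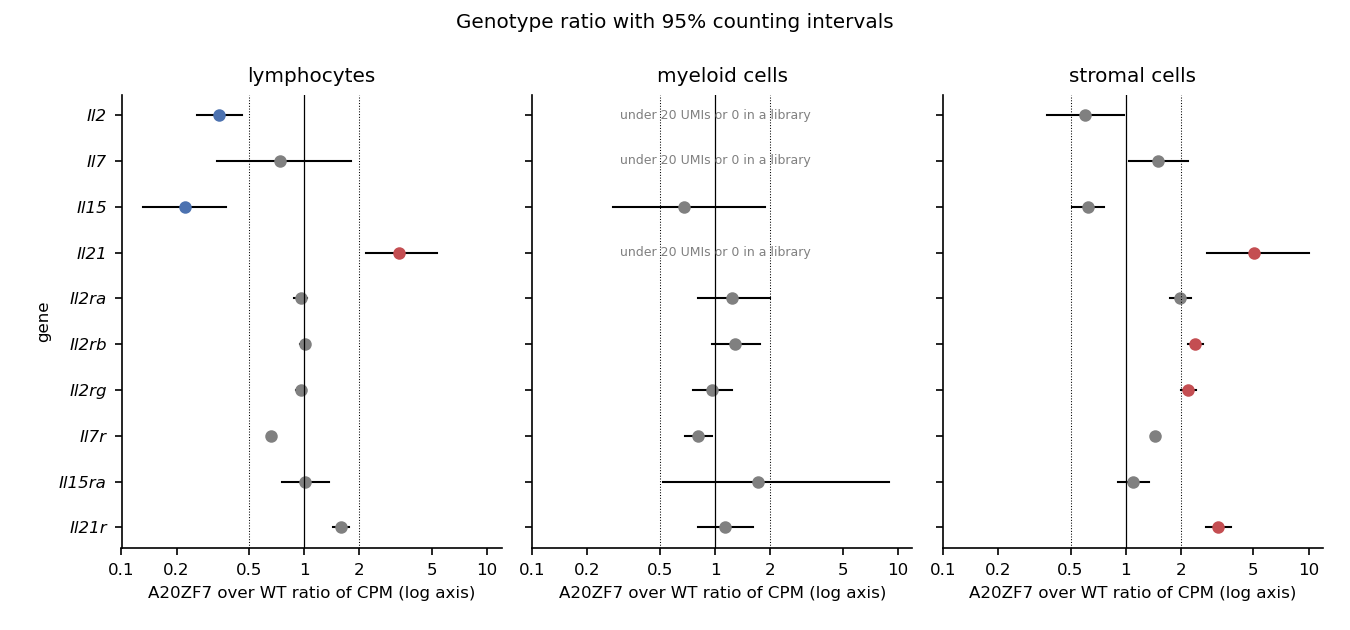
A20ZF7 over WT ratio of summed CPM on a log axis for each of the 10 genes in lymphocytes, myeloid cells and stromal cells, with points for the ratio and bars for the exact 95% counting interval. Il21 in lymphocytes lies at 3.31 while Il2 and Il15 lie at 0.342 and 0.223, and over all WT cells the receptor chains Il2rb, Il2rg and Il21r lie above 2 in the stromal cells and below 2 in the other panels.

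Il2 and Il21, which encode the cytokines made mainly by lymphocytes, are neighbours on mouse chromosome 3 and differed in opposite directions. Il2 lies on the minus strand at chr3:37120523-37125959 and Il21 on the same strand at chr3:37222759-37232636 (GRCm38), 96.8 kb apart. The 250 bases before each start site, from RefSeq on GRCm38.p6, are shown because they hold the sequence on which the pair can be compared, at chr3:37125955-37126204 for Il2 and chr3:37232637-37232886 for Il21, both on the minus strand. Capitals mark the core motif of NFAT factors, GGAAA, on either strand.
Il2: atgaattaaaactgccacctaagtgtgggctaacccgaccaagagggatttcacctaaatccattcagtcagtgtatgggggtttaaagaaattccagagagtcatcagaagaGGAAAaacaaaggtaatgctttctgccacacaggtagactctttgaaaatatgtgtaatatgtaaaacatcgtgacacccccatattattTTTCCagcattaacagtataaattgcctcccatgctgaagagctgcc
Il21: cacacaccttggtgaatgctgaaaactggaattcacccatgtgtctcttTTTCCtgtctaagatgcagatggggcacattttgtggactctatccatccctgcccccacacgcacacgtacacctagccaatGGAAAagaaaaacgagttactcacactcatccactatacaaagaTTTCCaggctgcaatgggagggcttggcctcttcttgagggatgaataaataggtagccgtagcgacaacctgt
The motif began at positions -137 and -47 from the start of Il2 and at -201, -118 and -74 from that of Il21. It is a short motif, present in 55.6% of 32851 promoters of this length, so its presence separates neither gene from the rest. The longer NF-kappaB consensus, found in 3.90% of these promoters, was in neither window, and among the 7 members with a listed promoter Il2ra was the one that held it.

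Il2 encodes the growth factor of activated T cells, and its RNA was lower in A20ZF7 lymphocytes. It was counted 93 times in 5254 WT lymphocytes, a level of 17.2 CPM (13.9 to 21), and 115 times in 21967 A20ZF7 lymphocytes, a level of 5.87 CPM (4.85 to 7.05). The ratio was 0.342 (0.258 to 0.455). Within WT, cells with the first mouse's hashtag held 17.7 CPM (12.9 to 23.8) and those with the second's 13.8 CPM (8.83 to 20.5), both above the A20ZF7 interval. At full depth, a UMI of Il2 was seen in 1.58% of WT and 0.428% of A20ZF7 lymphocytes, beside 0.428% and 0.250% of stromal cells, which should lack it. After thinning to 500 UMIs per cell, the lymphocyte shares were 0.723% and 0.226%. Myeloid cells had Il2 at 16.95 CPM in WT from 9 UMIs, near the WT lymphocyte level, and at 1.27 CPM in A20ZF7 from 3 UMIs, too few to call. The WT level was thus not particular to lymphocytes. By class, Il2 was called lower in ILC3-like cells, where 2.37% of all tested genes were called lower, with 23.6 CPM in WT and 7.97 in A20ZF7 (ratio 0.338, 0.190 to 0.590). It was also called lower in naive or central memory T-like cells, where 1.43% of tested genes were, with 20.4 and 5.83 CPM (0.285, 0.133 to 0.594). In the latter class the WT level was uneven between the mice, 29.996 CPM (14 UMIs) in the first and 6.24 CPM (2 UMIs) in the second. ILC2-like cells differed little, at 13.8 and 9.6 CPM. The other lymphocyte classes held too few UMIs to call. Th17-like cells had 40.7 CPM in WT (6 UMIs) and 3.56 CPM in A20ZF7 (16 UMIs). Treg-like cells had 26.6 CPM (3 UMIs) and 6.59 CPM (11 UMIs), and dividing lymphocytes 10.3 CPM (3 UMIs) and 3.73 CPM (14 UMIs). CD8 T-like cells went the other way, with 3.13 CPM in WT (2 UMIs) and 7.41 CPM in A20ZF7 (17 UMIs). The free RNA in the droplets, taken from barcodes under 50 UMIs, differed the same way, with 9.74 CPM (5.33 to 16.4) in WT and 2.60 CPM (0.315 to 9.38) in A20ZF7, and its part in the difference was not tested. The call did not hold where each cell was classed on its own from marker UMIs, with 7 WT UMIs left and a ratio of 0.796.

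Il21, the helper T cell cytokine that acts on B cells and T cells, was the member higher in A20ZF7 lymphocytes. It was counted 23 times in WT, a level of 4.25 CPM (2.69 to 6.37), and 275 times in A20ZF7, a level of 14 CPM (12.4 to 15.8), a ratio of 3.31 (2.16 to 5.31). Among the lymphocyte classes, the highest A20ZF7 levels were in dividing lymphocytes at 21.1 CPM (16.7 to 26.2), Th17-like cells at 17.8 CPM (14.1 to 22.1) and CD8 T-like cells at 13.1 CPM (8.82 to 18.7), and the intervals of neighbours in this order overlapped. Dendritic-like cells had 18.5 CPM in A20ZF7 from 9 UMIs. Within WT lymphocytes, the first mouse had 6.04 CPM (15 UMIs) and the second 3.44 CPM (6 UMIs), both below the A20ZF7 interval. In Th17-like cells themselves the level differed by less than counting error, with 20.3 CPM in WT (3 UMIs) and 17.8 in A20ZF7 (80 UMIs), a ratio of 0.875 (0.289 to 4.33) whose interval is wide because WT held so few of these cells. Il21 was called higher in ILC3-like cells, as were 5.39% of tested genes there, with 1.39 CPM (2 UMIs) and 8.67 CPM (25 UMIs), and in ILC2-like cells, as were 4.89%, with 1.11 CPM (2 UMIs) and 10.1 CPM (21 UMIs). ILCs lack a T cell receptor, but these 2 classes were named from marker lists and cells with T cell receptor RNA were not removed. In ILC2-like cells a summed T cell gene list was also 2.29 times as high in A20ZF7, at 458 and 1049 CPM. It held the CD3 genes Cd3e, Cd3d and Cd3g and the T cell receptor gene Trac. In ILC3-like cells the list was at 928 and 1202 CPM, a ratio of 1.30 (1.22 to 1.38), with a UMI in 42.5% and 49.0% of cells. The list was at 1004 and 1400 CPM in free RNA. Free RNA held Il21 at 2.09 CPM (3 UMIs) and 5.19 CPM (4 UMIs), and the part of free T cell RNA in these levels was not tested. When the 7 lymphocyte classes were given equal weight, the Il21 ratio was 1.72 and no longer passed 2-fold.

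Il15, which supports CD8 T cells and natural killer cells, and Il7, which supports naive lymphocytes and ILCs, were read mainly outside the lymphocytes. Stromal cells held 58.8% of the 311 Il15 UMIs in WT cells and 70.9% of the 299 in A20ZF7 cells, and 72.4% of the 58 and 74.5% of the 157 Il7 UMIs. Lymphocytes held 11.6% and 9.70% of the Il15 UMIs. The highest Il15 level among classes was in blood endothelium-like cells, with 52.1 CPM (36.1 to 72.8) in WT and 27 CPM (20.02 to 35.6) in A20ZF7, a ratio of 0.518 (0.328 to 0.826). The WT mice gave 46.3 and 50.4 CPM in that class, each above the A20ZF7 value though with wide intervals of 27 to 74.1 and 25.2 to 90.2. Of its 2 clusters, the one led by Selp and Madcam1, adhesion genes of postcapillary venules through which lymphocytes enter the gut, had 64.9 and 43.4 CPM (ratio 0.669, 0.360 to 1.26), and the one led by Fabp4 and Flt1 had 39.5 and 19.6 CPM (0.496, 0.244 to 1.06). Within either cluster the interval of the ratio reached past 1.

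Epithelium-like cells, led by the enterocyte genes Fabp1 and Apoa1, came next in WT for Il15, with 30.2 CPM (23.1 to 38.8) from 61 UMIs in 487 cells. The A20ZF7 library held 79 such cells with 1 Il15 UMI, and the ratio of 0.179 had an interval of 0.00446 to 1.04. Fibroblast-like cells had 19.9 CPM (16.7 to 23.6) in WT and 10.2 CPM (8.60 to 12) in A20ZF7, a ratio of 0.510 (0.401 to 0.650), close to the 2-fold threshold without passing it, and 0.487 against WT cells with a called hashtag. The fibroblast-like clusters were unevenly drawn, since 1 cluster held 528 WT and 6496 A20ZF7 cells and another 1928 and 63, and they differed in Il15. The cluster of mostly WT cells, led by Plac9a and Mfap4, had 22.6 CPM in WT. It held 53 of the 133 Il15 UMIs of WT fibroblast-like cells, and 1 UMI in A20ZF7. In the cluster led by Sox6 and Pdgfra, genes of subepithelial fibroblasts of the villus, the levels were 25.8 and 8.55 CPM, a ratio of 0.332 (0.159 to 0.668), and in that led by Mmp10 and Saa3, a matrix protease and an acute-phase protein, 23.7 and 13.8 CPM (0.581, 0.341 to 0.979). The clusters led by Sfrp1 and by Igfbp6 did not differ beyond counting error, with 11.7 and 10.2 CPM in the former and 10.1 and 8.66 CPM in the latter. Macrophage or monocyte-like cells, another known source of IL-15, had 18.8 CPM (7 UMIs) and 9.81 CPM (18 UMIs), and smooth muscle-like cells had 5.88 and 5.48 CPM with no difference beyond counting error.

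In lymphocytes, Il15 was at 6.65 CPM (4.65 to 9.20) in WT from 36 UMIs and 1.48 CPM (0.992 to 2.13) in A20ZF7 from 29 UMIs, a ratio of 0.223 (0.132 to 0.374). The WT mice gave 5.63 and 4.59 CPM there, and WT lymphocytes without a called hashtag 11.8 CPM (6.44 to 19.8). These lymphocyte levels lay at or below the free RNA levels of 6.96 CPM (3.34 to 12.8, 10 UMIs) in WT and 5.19 CPM (1.42 to 13.3, 4 UMIs) in A20ZF7. The stromal levels of 18.2 CPM (15.6 to 21) and 11.3 CPM (9.87 to 13) were 2.61 and 2.18 times the free RNA. In A20ZF7 the free RNA interval held both the lymphocyte and the stromal level, and in WT the stromal level lay above it. Over all stromal cells the Il15 ratio was 0.624 (0.510 to 0.765).

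Il7 was highest in lymphatic endothelium-like cells, marked by Ccl21a, Mmrn1 and Lyve1, with 39.3 CPM (16.9 to 77.3) from 8 UMIs in 156 A20ZF7 cells and 32.2 CPM from 1 UMI in 25 WT cells. Fibroblast-like cells held most of its UMIs, with 36 in WT and 99 in A20ZF7, at 5.40 CPM (3.78 to 7.47) and 6.86 CPM (5.57 to 8.35), which did not differ beyond counting error. The fibroblast-like cluster led by Mmp10 and Saa3 had 2.63 CPM in WT from 4 UMIs and 11.8 CPM in A20ZF7 from 24 UMIs, a ratio of 4.48 (1.54 to 17.8). Of the other fibroblast-like clusters, 3 had ratios of 0.694 (0.296 to 1.99), 1.02 (0.378 to 3.17) and 1.14 (0.395 to 3.70), none beyond counting error, and the last held 14 WT UMIs and 1 A20ZF7 UMI. Over all stromal cells the levels were 4.17 CPM (3.01 to 5.64) and 6.26 CPM (5.18 to 7.50), a ratio of 1.5 (1.05 to 2.19). Across the 19 alternatives the stromal ratio ran from 1.21 to 2.03. Leaving out the 2 fibroblast-like clusters drawn mostly from 1 library gave the value of 2.03.

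**Figure D2:**
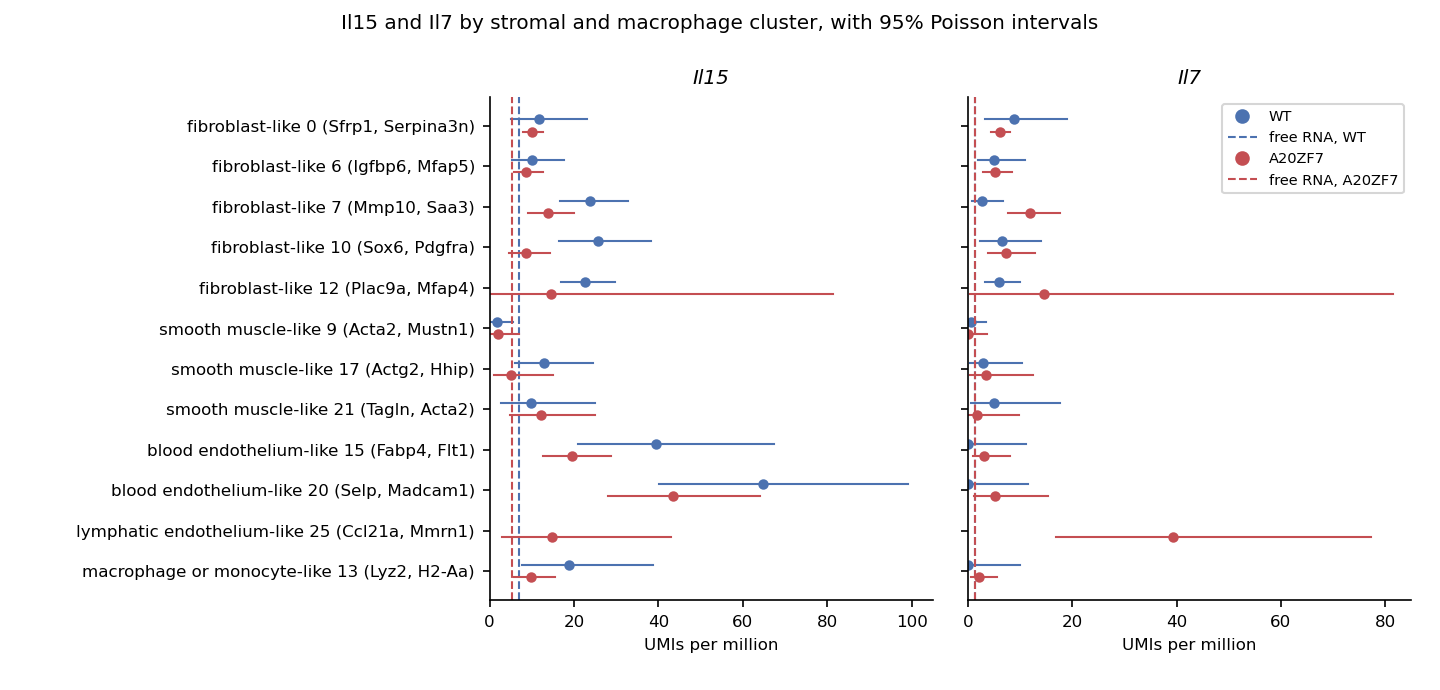
Il15 and Il7 levels in CPM in each stromal and macrophage or monocyte-like cluster with at least 50 cells in the library, named with its 2 leading genes, where points are WT and A20ZF7 levels, bars exact 95% Poisson intervals and dashed lines the free RNA of each library. The blood endothelium-like cluster led by Selp and Madcam1 stands highest for Il15 at 64.9 and 43.4 CPM, and the lymphatic endothelium-like cluster for Il7 at 39.3 CPM.

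Among the private receptor chains, Il7r encodes the receptor alpha chain for IL-7, which ILCs and resting T cells carry. Its highest level was in ILC3-like cells, at 1282 CPM (1224 to 1341) in WT and 839 CPM (806 to 873) in A20ZF7, a ratio of 0.654 (0.616 to 0.696). Naive or central memory T-like cells followed at 1031 CPM (969 to 1097) and 708 CPM (674 to 742), a ratio of 0.686 (0.634 to 0.742). The 2 WT mice gave 1275 and 1355 CPM in ILC3-like and 1071 and 1014 CPM in naive or central memory T-like cells. The other lymphocyte classes differed less. Il7r was at 586 and 526 CPM in CD8 T-like, 542 and 423 in Th17-like, 531 and 565 in ILC2-like, 470 and 558 in Treg-like cells and 331 and 293 in dividing lymphocytes. With the 7 classes weighted equally the ratio was 0.820, and it was higher in A20ZF7 in 2 of the 7. The share of ILC3-like cells with an Il7r UMI was 67.1% in WT and 45.9% in A20ZF7, and after thinning each cell to 500 UMIs, which left out 699 A20ZF7 and 0 WT cells, it was 46.5% (43.9 to 49.2) and 33.3% (31.5 to 35.1). Fibroblast-like cells, which should lack Il7r, had a UMI of it in 13% of WT and 19% of A20ZF7 cells at levels of 155 and 224 CPM, below the free RNA at 420 and 340 CPM. Stromal cells had median depths of 1138 and 1018 UMIs, and lymphocytes of 874 and 714.

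**Figure D3:**
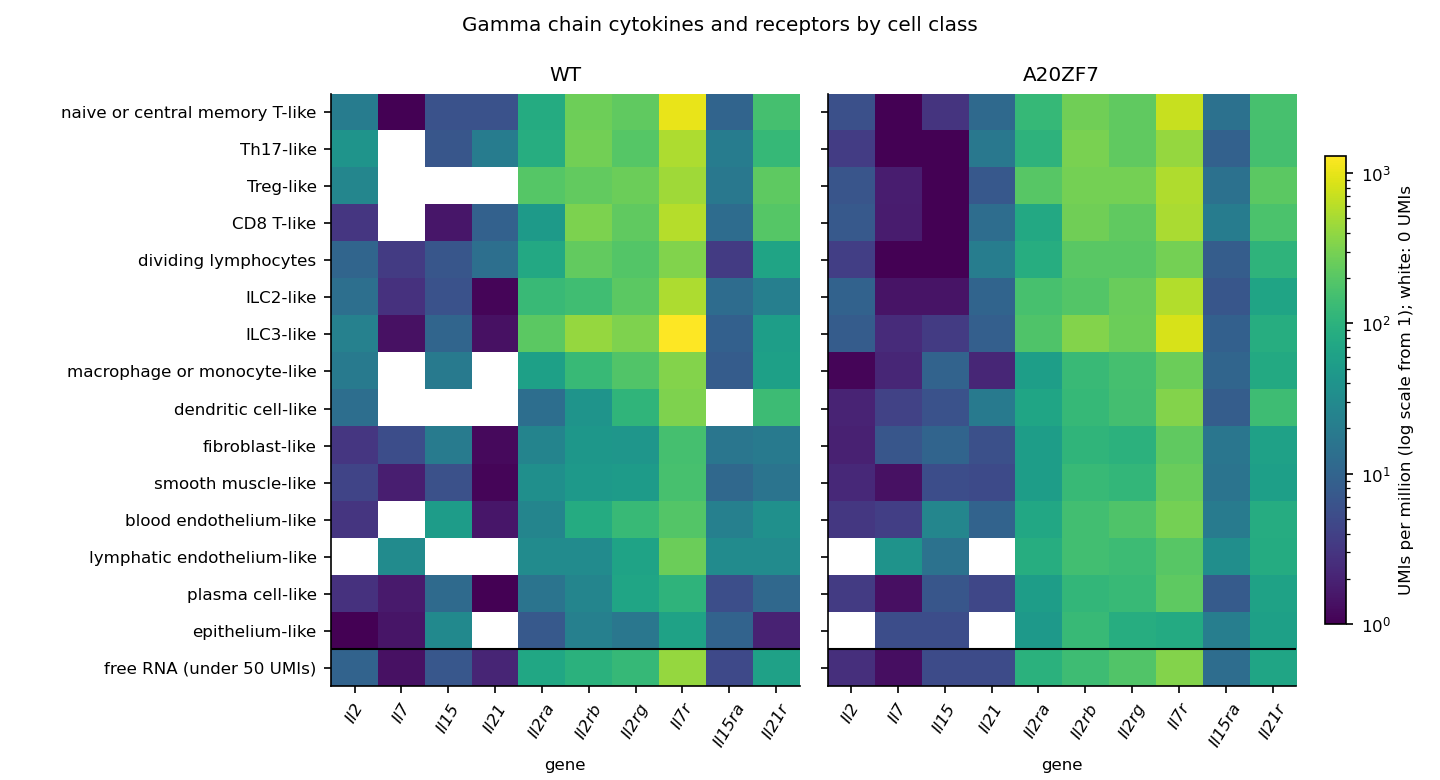
Level of each of the 10 genes in CPM, on a log colour scale, in 15 classes and in the free RNA of WT and of A20ZF7, with classes in rows, genes in columns and white for 0 UMIs. Il7r, Il2rb and Il2rg are highest in the lymphocyte classes, Il15 in blood endothelium-like cells and, in WT, next in epithelium-like cells, and Il7 in lymphatic endothelium-like cells.

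Il2ra (CD25), the alpha chain that gives the IL-2 receptor its high affinity, had its highest levels in ILC3-like and Treg-like cells. ILC3-like cells had 215 CPM (192 to 241) in WT and 182 CPM (167 to 199) in A20ZF7, Treg-like cells 195 CPM (122 to 295) and 202 CPM (181 to 225), and ILC2-like cells 128 CPM (112 to 145) and 163 CPM (146 to 181). The intervals of ILC3-like and Treg-like cells overlapped in both libraries. Over all lymphocytes it was 131 and 125 CPM, a ratio of 0.954 (0.878 to 1.04). Regulatory T cells carry this chain constantly, and here its RNA was found in 16.4% of 110 WT and 14.4% of 1999 A20ZF7 Treg-like cells, beside 2.76% and 5.79% of fibroblast-like cells. No lymphocyte class passed 2-fold for Il2ra.

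Il2rb (CD122), shared by the receptors for IL-2 and IL-15, was also highest in ILC3-like cells, with 422 CPM (389 to 457) in WT and 342 CPM (321 to 364) in A20ZF7, a ratio of 0.810 (0.731 to 0.897). CD8 T-like cells had 317 and 274 CPM, Th17-like cells 285 and 308 CPM, naive or central memory T-like cells 266 and 272 CPM and ILC2-like cells 146 and 193 CPM. The ratio over all lymphocytes was 1.0 (0.946 to 1.06). Il15ra, which presents IL-15, lay between 3.44 and 34.4 CPM in every class where it had a UMI. In lymphocytes it had 11.1 CPM (8.45 to 14.3) and 11.2 CPM (9.75 to 12.8), and in stromal cells 15.7 CPM (13.3 to 18.3) and 17.2 CPM (15.4 to 19.2). Blood endothelium-like cells, where Il15 was highest, had 23 and 19.96 CPM. Il2ra and Il15ra are neighbours on chromosome 2, at chr2:11642807-11693193 and chr2:11705290-11734317 on the plus strand and 12.1 kb apart, yet Il15ra was spread over stromal and lymphoid classes and Il2ra was highest in lymphoid ones.

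Il21r, the receptor for IL-21, was highest in T cells. Treg-like cells had 222 CPM (143 to 327) in WT and 211 CPM (190 to 235) in A20ZF7, CD8 T-like cells 194 and 173 CPM, naive or central memory T-like cells 157 and 160 CPM, and Th17-like cells 122 and 158 CPM, with no class among these differing beyond counting error. The lymphocyte sum was nevertheless higher in A20ZF7, at 85.1 CPM (77.5 to 93.2) and 135 CPM (130 to 140), a ratio of 1.58 (1.43 to 1.75). Against WT cells with a called hashtag the ratio was 1.36, and with the classes weighted equally it was 1.15. In dividing lymphocytes the levels were 65.5 and 107 CPM, a ratio of 1.64 (1.03 to 2.75). The ILC classes accounted for the lowest levels, with 56.2 and 87.0 CPM in ILC3-like and 22.1 and 66.7 CPM in ILC2-like cells. The ratio in ILC2-like cells was 3.02 (2.11 to 4.40), and the T cell gene list was 2.29 times as high in the same cells. Free RNA held Il21r at 59.9 CPM (47.9 to 73.9) in WT and 67.5 CPM (50.4 to 88.5) in A20ZF7. The ILC2-like level lay below this interval in WT and inside it in A20ZF7, and both ILC3-like levels lay inside. The part of free RNA in these differences was not tested. Dendritic-like cells, led by Siglech, had 135 and 142 CPM.

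Il2rg, the common chain itself, lies on the X chromosome at chrX:101264378-101268255 on the minus strand and was found in every class with at least 1 UMI in both libraries. It had 321 CPM (292 to 351) in WT and 259 CPM (241 to 279) in A20ZF7 ILC3-like cells, 257 and 288 CPM in Treg-like cells, 227 and 224 CPM in naive or central memory T-like cells, 224 and 224 CPM in CD8 T-like cells and 215 and 249 CPM in ILC2-like cells. Over all lymphocytes the ratio was 0.959 (0.902 to 1.02). Macrophage or monocyte-like cells had 183 CPM (142 to 232) and 156 CPM (138 to 175), near the free RNA levels of 123 and 187 CPM. A UMI of Il2rg together with one of Il7r was seen in 19.3% of WT (17.3 to 21.5) and 9.21% of A20ZF7 (8.26 to 10.2) ILC3-like cells, and together with Il2rb in 10.2% and 5.23%. These paired shares were not thinned to a common depth, and in fibroblast-like cells the pair of Il2rg and Il7r was seen in 1.77% and 3.61%.

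In myeloid cells, 0 of the 7 genes that reached 20 UMIs passed 2-fold, against 9.11% of all 9636 tested genes. Their median ratio was 1.13 and that of all genes 1.05. Il2 had 9 UMIs in WT and 3 in A20ZF7 and stayed under the minimum, while Il7 and Il21 were at 0 in the 361 WT cells, where 3 UMIs would have been 5.65 CPM.

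In stromal cells, 4 of the 10 genes were called higher in A20ZF7 over all WT cells and 0 lower, against 13.5% of 14386 tested genes called in either direction and 7.4% called higher. The median ratio was 1.75 over the 10 genes and 0.953 over all genes. The 4 were Il21 at 1.19 and 5.99 CPM (ratio 5.03, 2.77 to 10.03), Il21r at 19.6 and 62.8 CPM (3.21, 2.76 to 3.75), Il2rb at 47.7 and 115 CPM (2.41, 2.18 to 2.66) and Il2rg at 50.3 and 111 CPM (2.20, 2.0 to 2.43), with Il2ra just under the threshold at 1.99. The calls of the 3 receptor chains did not hold without the 4569 WT stromal cells that had no called hashtag. Il2rb was at 73.8 and 79.96 CPM in the 2 WT mice and at 22.4 CPM in WT cells without a called hashtag. Il2rg was at 80.3 and 87.1 CPM in the mice and 21.5 CPM in the other cells, and Il21r at 28.2 and 41 CPM and 8.10 CPM. A20ZF7 cells could not be limited to those with a called hashtag, so the ratios that follow set a part of WT against all of A20ZF7. Against WT cells with a called hashtag the ratios were 1.51 for Il2rb, 1.35 for Il2rg and 1.94 for Il21r, none of them called. The ratio of Il21 was 3.17 from 9 WT UMIs, all in the first mouse. Il2 was then called lower at 0.432, from 23 and 39 UMIs. The T cell gene list was also higher in A20ZF7 stromal cells, at 249 CPM in WT and 795 CPM in A20ZF7, a ratio of 3.19 (3.06 to 3.33). The part of T cell RNA in the stromal calls was not tested. That list too was uneven within WT, at 390 and 438 CPM in the mice and 109 CPM in stromal cells without a called hashtag. Each stromal level of Il2ra, Il2rb, Il2rg, Il7r and Il21r was below that gene's level in the free RNA of its own library, between 0.327 and 0.930 times it. In A20ZF7 stromal cells Il21 was 1.15 times its free RNA level and in WT 0.571 times. These values rest on 4 free RNA UMIs of Il21 in A20ZF7, an interval of 1.42 to 13.3 CPM, and 3 in WT, 0.431 to 6.10 CPM. Each interval held the stromal level of its library.

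**Figure D4:**
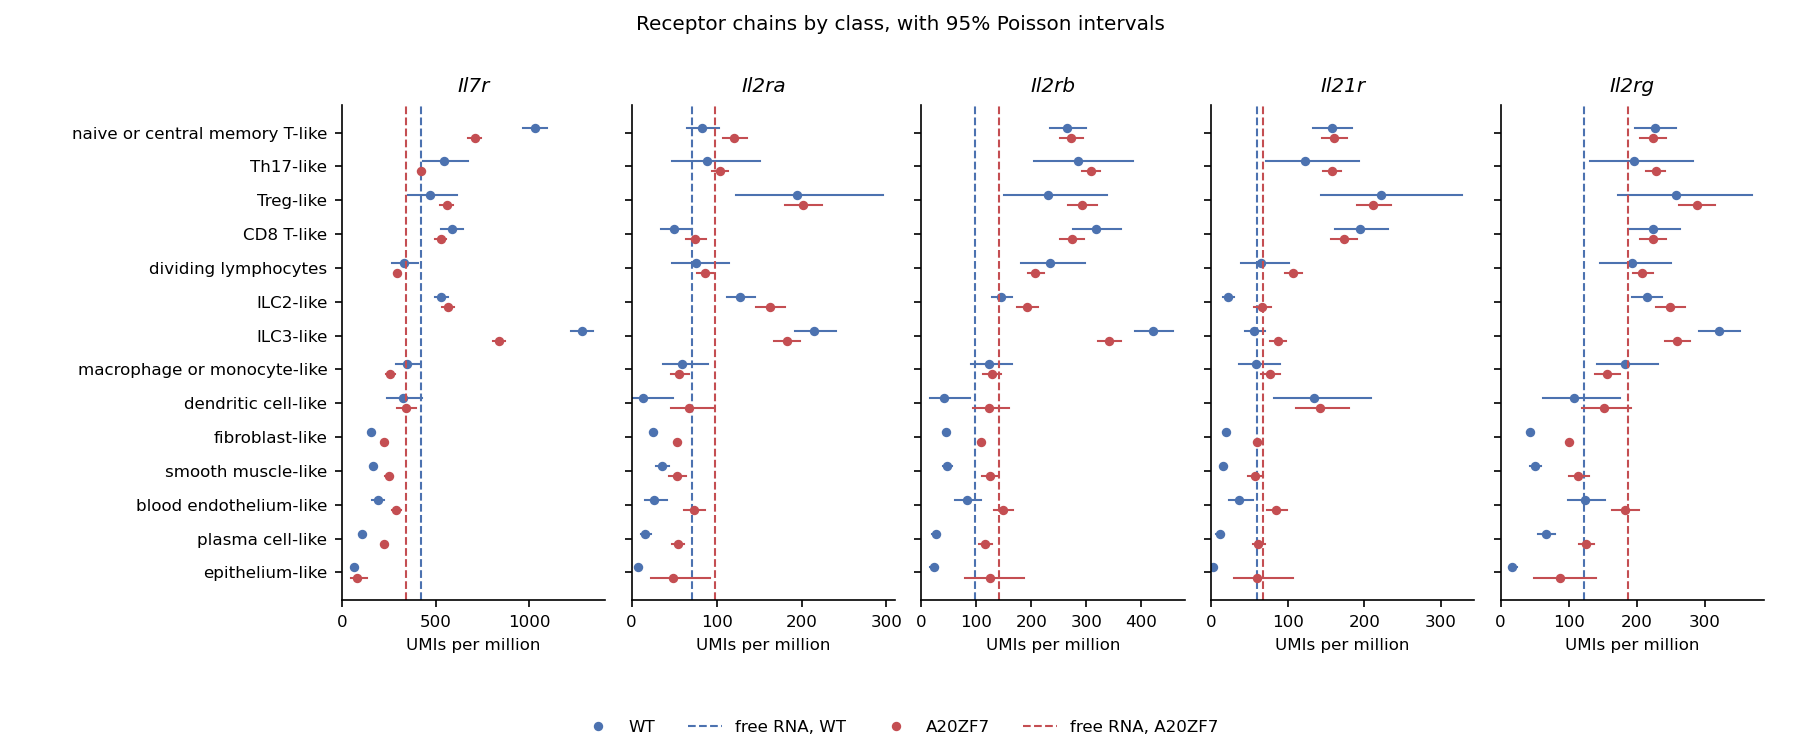
Levels in CPM of 5 receptor chains by cell class in WT and A20ZF7, with bars for exact 95% Poisson intervals and dashed lines for the free RNA of each library. Fibroblast-like cells lie below the free RNA line of their own library for every chain, at 155 and 224 CPM for Il7r, while ILC3-like cells lie above it at 1282 and 839 CPM.

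The other genes of the pathway were taken from a list of 25 with 4 roles, of which 23 reached 20 UMIs in lymphocytes. Of these, 1 was called higher and 3 lower in A20ZF7, against 6.3% and 3.48% of all tested genes, and their median ratio was 1.07. Of the signalling genes, the kinases Jak1 and Jak3 had ratios of 1.13 (1.08 to 1.19) and 1.29 (1.13 to 1.47). The transcription factors Stat5a and Stat5b, which IL-2, IL-7 and IL-15 activate, had 47.6 and 73.6 CPM (1.55, 1.35 to 1.77) and 221 and 351 CPM (1.59, 1.49 to 1.69), and Stat3, which IL-21 activates, had 372 and 539 CPM (1.45, 1.38 to 1.52), all within 2-fold. Gzmb, which encodes the cytotoxic protease granzyme B and is a target of IL-2 and IL-15 signalling, was the one called higher, at 190 and 402 CPM (2.11, 1.98 to 2.26), a call that did not hold against WT cells with a called hashtag. In CD8 T-like cells, its usual source, Gzmb differed less, with a ratio of 1.26 (1.14 to 1.39). Among lymphocyte classes it was called higher in Th17-like, ILC3-like and ILC2-like cells and not in the others. Gzmb was also called higher over all stromal cells, over all myeloid cells and in fibroblast-like cells, so its difference was not particular to lymphocytes. The part of free RNA in it was not tested.

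The 3 called lower were Il4, a further cytokine of the family, at 199 and 53.4 CPM (0.268, 0.246 to 0.293), Il9r, the receptor for IL-9, at 67.4 and 18.3 CPM (0.271, 0.234 to 0.315), and Socs2, a STAT5-induced feedback inhibitor, at 99.5 and 48.6 CPM (0.489, 0.439 to 0.544). Il4 was concentrated in ILC2-like cells, with 548 and 356 CPM there (ratio 0.650, 0.590 to 0.715), and these cells were 1671 of the WT and 2147 of the A20ZF7 lymphocytes. Il9r in ILC2-like cells was at 180 and 83.1 CPM (0.461, 0.381 to 0.555). With classes weighted equally, Il9r was still called lower, Socs3, another feedback inhibitor, was called higher, and the other 3 were not called. Socs3 had 30.5 and 71.4 CPM in ILC3-like cells (2.34, 1.68 to 3.32) and 19.9 and 44.7 CPM in ILC2-like cells (2.24, 1.51 to 3.39). It was also called higher in Th17-like cells, Treg-like cells and dividing lymphocytes, and outside the lymphocytes in plasma cell-like and dendritic-like cells. In blood endothelium-like cells it was called lower.

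The genes whose levels ran most like each member were taken over 27 points, each a class in 1 library with at least 100 cells, among 4296 genes, and many points share a library and its free RNA. Il2rb ran closest to Tnfaip3, the gene of A20 itself (Pearson r = 0.973), with Rasgrp1 (0.967) and Stk10 (0.965) close behind. The points include lymphocyte and other classes, and what set these ranks was not tested. Il2rg ran closest to Srgn (0.971), Il7r to Nabp1 (0.956) and Ltb (0.950), and Il2ra to Crem (0.949). Il21r ran closest to the CD3 genes Cd3e (0.957) and Cd3d (0.954). Of the stromal cytokines, Il7 ran closest to Mmrn1 (0.906), a marker of lymphatic endothelium, and Il15 to F11r (0.877), which encodes the junction protein JAM-A of epithelium and endothelium. Lymphatic endothelium-like cells gave 1 of the points, from A20ZF7, with 8 Il7 UMIs, and Mmrn1 was on the marker list that named them. The correlation of Il7 with Mmrn1 is therefore not separate from the level in that class given above. The nearest genes of Il15ra and Il21 were Numb (0.783) and Rabggtb (0.759).

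Antibodies to 3 receptors, CD25 (Il2ra), IL7R and IL2R, were counted in the WT library, among 138 surface antibodies. The IL2R antibody has no stated chain. Each antibody carries a 15-base tag by which it is counted, shown here because the tag is what was sequenced, in lower case and with no part marked.
CD25: accatgagacacagt
IL7R: gtgtgaggcactctt
IL2R: ggtatgcgacactta
The counts of all 3 were nearly flat across classes that differed in RNA. CD25 had between 3.62 and 6.73 UMIs per 10000 antibody UMIs in the 15 classes compared, IL7R between 81.8 and 121, and IL2R between 73.1 and 101. On this scale, blood endothelium-like cells gave the highest CD25 value and the lowest IL7R and IL2R values, and Treg-like cells had 3.96 for CD25. Blood endothelium-like cells also held more antibody UMIs per cell, a median of 3327 against 1640 in ILC3-like cells. Without scaling, their median counts were above those of ILC3-like cells, 28 against 21 UMIs for IL7R and 25 against 17 for IL2R. CD25 counts were low, with class medians of 0 to 2 UMIs per cell, so a difference in CD25 could be missed. ILC3-like cells, with the highest Il7r RNA, had a median of 21 IL7R UMIs, and fibroblast-like cells had 20. Fibroblast-like cells had 3.81 per 10000 for CD25, beside 3.96 in Treg-like cells, and 98.5 for IL2R, beside 99.1 in ILC3-like cells. Counts this alike do not show that the 3 antibodies read receptor protein, so they give no protein level by class. In the same library, CD31, an endothelial protein, had 682 per 10000 in blood endothelium-like cells and 56.5 in fibroblast-like cells, and CD4 had 32.8 in Th17-like and 10.1 in fibroblast-like cells. The 3 antibody files labelled A20ZF7 held the same values as the WT files, so no A20ZF7 protein level is given.

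**Figure D5:**
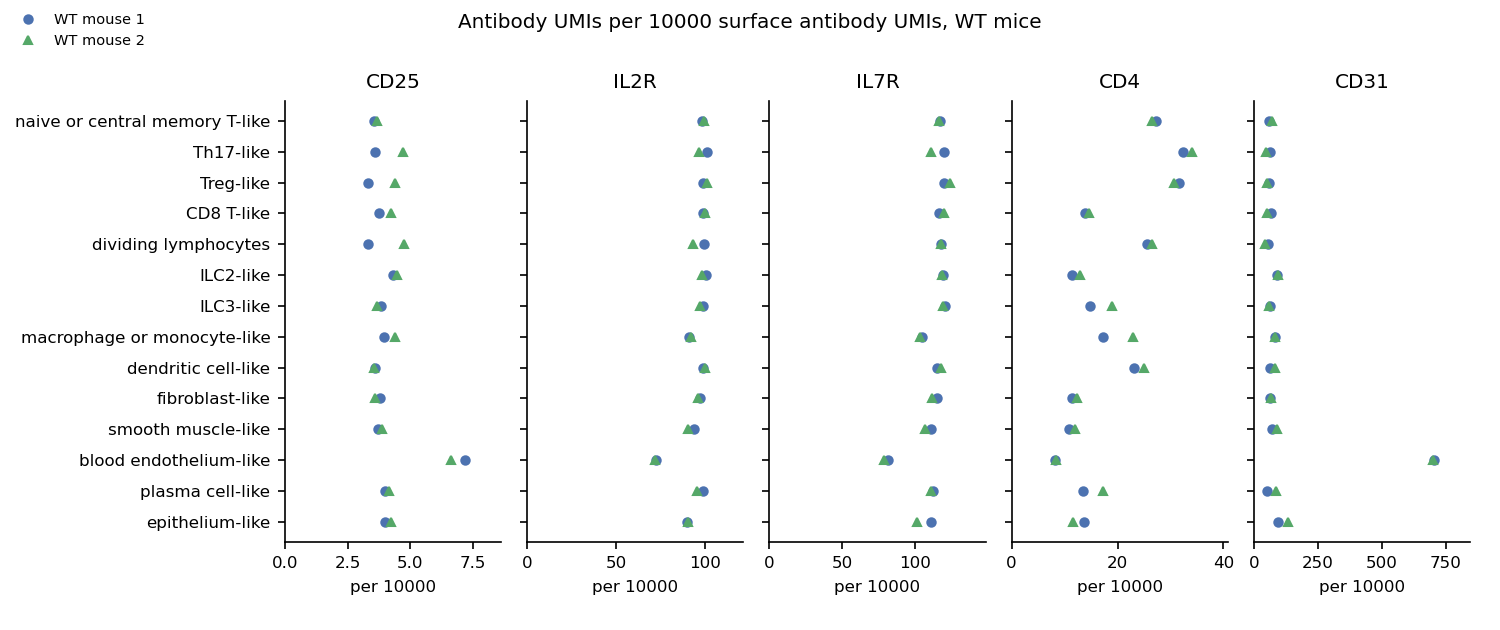
UMIs of the CD25, IL2R, IL7R, CD4 and CD31 antibodies per 10000 surface antibody UMIs in each class of the WT library, with circles for WT mouse 1 and triangles for WT mouse 2. The 3 receptor antibodies change little between lymphocyte and fibroblast-like classes, while CD31 stands out in blood endothelium-like cells.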

How the data were processed

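The authors sequenced 10x 5′ gene expression and antibody libraries of pooled, hashtagged cells and deposited unfiltered matrices of UMI counts, not normalized, one per genotype and library type. Per the submitters' notes, reads were aligned with Cell Ranger 7.1 (mm10) and analysed with R 4.3.3 and Seurat 4.3, while the header of the WT gene expression matrix names Cell Ranger 8.0.0. The libraries held 35289432 (WT) and 54587004 (A20ZF7) UMIs. Barcodes were kept as cells above a library-specific minimum of 676 (WT) or 397 (A20ZF7) UMIs, with 200 to 2500 detected genes and under 15% mitochondrial UMIs, and WT barcodes with 2 hashtags were removed. No such removal was possible in A20ZF7, whose antibody files held the WT values, so this filter differed by genotype. Other doublets were left in, and removal by Scrublet score was tried as an alternative. Cells were clustered in Seurat 5.3.0 (2000 variable genes without the 10 members, 30 components, resolution 0.8, cell cycle regressed), and clusters were named by the mean log2 fold of marker lists, with naming thresholds set after the clusters were seen. WT cells were assigned to a mouse by hashtag where one was called (5154 and 2780 cells, with 6593 unassigned).

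UMIs were summed per class and library and scaled to CPM with exact Poisson intervals. Shares have exact Clopper-Pearson intervals and ratios exact conditional binomial intervals (scipy 1.17.1). The ratio, its interval and the call were tested on simulated Poisson totals, which meet the assumption of the interval. The summing over cells was not tested. The design allowed no test. Genes named are the 10 members, pathway genes past 2-fold with at least 20 UMIs in lymphocytes, and the 3 genes with the highest Pearson correlation of log2(CPM + 10) to each member. Signalling, class and marker genes named beside these were chosen after their values were seen. Some genes that this rule covers are not reported here. The members and lists were chosen with earlier results of these data known. Gene positions come from the GENCODE vM21 annotation and promoters from RefSeq. The alternatives covered depth and gene limits, doublets, resolution, class assignment, scaling, free RNA, thinning and leaving out a WT mouse. Chosen after seeing the data were members allowed among the variable genes, shared barcodes left out, equal class weights, fibroblast-like clusters left out, and WT limited to cells with a called hashtag, of both mice or of one.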

Additional observations from a re-analysis of the deposited data

How the results depend on the processing

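In lymphocytes, the count of members past 2-fold was 3 and lay between 1 and 6 over 19 alternatives. It was 1 with cells classed one by one from marker UMIs (Il21 higher) and 6 after full subtraction of free RNA, with Il21 and Il21r higher, Il2, Il2ra, Il2rg and Il7r lower, and Il15 lost. In myeloid cells the count of 0 became 1 with a minimum of 5 UMIs (Il2 lower), 1 with at least 1000 UMIs per cell (Il2ra higher), 1 with cells classed one by one (Il2rb higher) and 1 with WT limited to cells with a called hashtag (Il15ra higher). In stromal cells the count of 4 became 2 with WT limited to cells with a called hashtag (Il21 higher, Il2 lower) and 1 after subtraction of free RNA (Il15ra lower), and the count of 4 pathway genes in lymphocytes became 2 with equal class weights (Socs3 and Il9r). Full subtraction took the whole free RNA level from each class, as if every UMI there were free RNA. Its calls in lymphocytes are therefore an extreme and not levels corrected for free RNA. A gene at or below its free RNA level then has nothing left to call, so the stromal count shows nothing about stability. The cause of the other changes in count was not tested. Leaving out the cells of a WT mouse, with the WT cells of no called hashtag kept or left out as well, gave 2 to 3 calls in lymphocytes, 0 to 1 in myeloid cells, 0 to 5 in stromal cells and 2 to 4 of the pathway genes. Where the cells without a called hashtag were kept, their own mouse is unknown, so those counts do not show what holds without a mouse. With each mouse alone, Il2 and Il21 were called in lymphocytes, Il15 had 14 and 8 WT UMIs and ratios of 0.263 and 0.323, and stromal cells had 3 calls (Il7, Il21 and Il21r higher) for the first mouse and 0 for the second, where Il21 had 0 UMIs. Single ratios in lymphocytes ran from 0.292 to 0.796 for Il2, 0.194 to 0.355 for Il15 and 1.72 to 5.15 for Il21. That of Il7r ran from 0.487 to 0.820, and all of these kept their direction. That of Il21r ran from 0.856 to 2.66. The values of 0.487 and 2.66 came from full subtraction of free RNA. No paired analysis was possible because each genotype had 1 library and its replicate number names no pair. Il2, Il7, Il15, Il21 and Il15ra had 36 to 611 UMIs each in all cells of a library, and levels of 1 to 3 UMIs in a class cannot be compared.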
